A study of Mus musculus with 6 samples.

Results

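The 44 genes described here drive or mark the cell division cycle and mitosis, and they were followed in muscle of mice of the strain given as c57b6l. They were taken by symbol from a table of read counts per gene, in which all 44 were found among 52110 rows with a symbol. By role, 18 belong to the G1/S class (entry into the cycle and DNA replication) and 26 to the G2/M class (entry into mitosis, chromosome segregation and exit). The mice were wild type (WT), 3 given the agent labelled click and 3 given the agent labelled EDC. The agents' composition, the dose, the time, the muscle, and the age and sex of the mice are not stated in the labels, and neither group is labelled as untreated.

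Cells that enter the cycle first make D and E cyclins, whose kinases release E2F transcription factors from the retinoblastoma protein. E2F then drives genes for origin licensing (the loading of MCM helicases), nucleotide supply and replication. Later, B-MYB (Mybl2), FOXM1 and the MuvB complex drive the mitotic genes, through CCAAT boxes bound by NF-Y and a cell cycle homology region, or CHR. Securin, the product of Pttg1, holds separase inactive until the anaphase-promoting complex destroys it, so that sister chromatids part only when all are attached. Adult muscle fibres do not divide, so transcripts of these genes in muscle are usually assigned to dividing satellite cells, fibroblasts, endothelial cells or immune cells. In bulk tissue, fewer cells of a type and less RNA per cell cannot be told apart.

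The promoters of 35 of the 44 genes, 15 of the G1/S class and 20 of the G2/M class, were matched in a RefSeq table of windows from 250 bases before to 50 bases after each start (GRCm38.p6, the build of the counts). The stretches below show up to 120 bases upstream of the start for 5 of the genes described further on. E2f2 and Mcm6 stand for G1/S genes, and Ccnb2, Cdk1 and Bub1 for G2/M genes, each read 5′ to 3′ on the strand of its gene, with bases inside annotated exons left out. Capitals mark CCAAT or its complement ATTGG, the CHR motifs TTTGAA and TTCGAA, and the E2F motifs TTTCCCGC, TTTCGCGC, TTTGCCGC and TTTGGCGC, all searched on both strands. The run TTTGGCGCGAAA in Mcm6 holds overlapping E2F matches on opposite strands, and TTCGAA reads the same on both strands. In these stretches all 5 genes show CCAAT boxes, E2F matches are seen in Mcm6 and a CHR in Cdk1. The E2F match of E2f2 and the CHRs of Ccnb2 and Bub1 lie in other parts of their windows.
E2f2, chr4:136172154-136172273, plus strand: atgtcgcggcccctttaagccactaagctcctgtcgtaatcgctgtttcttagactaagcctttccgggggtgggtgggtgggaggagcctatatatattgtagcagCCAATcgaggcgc
Mcm6, chr1:128359706-128359825, minus strand: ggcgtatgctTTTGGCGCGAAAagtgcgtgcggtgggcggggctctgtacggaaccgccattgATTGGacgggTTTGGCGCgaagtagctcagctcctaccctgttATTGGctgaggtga
Ccnb2, chr9:70421555-70421674, minus strand: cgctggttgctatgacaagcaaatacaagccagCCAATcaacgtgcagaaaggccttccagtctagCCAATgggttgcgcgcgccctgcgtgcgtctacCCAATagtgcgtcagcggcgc
Cdk1, chr10:69352939-69353032, minus strand: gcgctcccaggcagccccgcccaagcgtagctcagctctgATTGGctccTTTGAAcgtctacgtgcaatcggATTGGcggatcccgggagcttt
Bub1, chr2:127831866-127831979, minus strand: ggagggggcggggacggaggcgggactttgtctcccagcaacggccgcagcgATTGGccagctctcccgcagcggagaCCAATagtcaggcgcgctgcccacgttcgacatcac

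Across the whole windows, a CCAAT box stood in 16 of 20 G2/M genes (80%) and 10 of 15 G1/S genes (66.7%), against 37.4% of all 32851 windows. A CHR stood in 14 of 20 G2/M genes (70%) and 2 of 15 G1/S genes (13.3%), against 19.2% of all windows. An E2F match stood in 1 of 20 G2/M genes (5%), Cdk1, and in 8 of 15 G1/S genes (53.3%), against 2.26% of all windows. The pair of a CCAAT box and a CHR was held by 14 G2/M genes and by 2 G1/S genes, Mcm2 and Mcm7, against 7.52% of all windows. None of these motifs was found in the windows of Mybl2, Birc5, Nusap1 and Pttg1 in the G2/M class, nor in those of Ccne1, E2f1 and Tyms in the G1/S class. All windows without any of them made up 49.8%. The start of Pttg1 in GENCODE M21 lies 270 bases upstream of the RefSeq start, so its window covers transcribed sequence by that annotation. The window of E2f1 (chr2:154569377-154569676) likewise lies inside the gene as GENCODE M21 places it (chr2:154559407-154569892, minus strand). So do the windows of Cdc6 and Mcm7, whose matches are counted above. For Pttg1, E2f1, Cdc6 and Mcm7, sequence upstream of the GENCODE start was outside the window. A match is a description of letters and not a bound site.

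The libraries held 35689994 to 39305779 reads in the click group and 34472421 to 38094826 in the EDC group. The 44 genes together took 5676, 6318 and 11461 reads in click replicates 1 to 3, against 17059, 9907 and 16313 in EDC replicates 1 to 3. Mitochondrially encoded genes took 18.9% to 30.2% of the reads in click libraries and 14.8% to 17.9% in EDC libraries. The RNA of Xist, made by cells with an inactive X chromosome, was read only in replicate 1 of each group, with 8755 reads in click and 11813 in EDC. Ddx3y, a gene of the Y chromosome, had 0 reads in those libraries and 1857 to 2379 in each of the others. By these reads, replicate 1 of each group appears to be female and the other libraries male. Fits without both libraries with Xist reads therefore compare libraries that appear male. The ratio of mt-Atp6 reads to those of its nuclear copy Gm10925 was 0.162 in click replicates 1 and 3 and 0.166 in EDC replicate 2, and lay between 0.927 and 0.937 in the other 3 libraries. No label names a batch. Levels in CPM below are counts relative to the library total, scaled by TMM factors.

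All 44 genes passed the filter on low counts, and 36 lay lower in click than in EDC muscle while 8 lay higher. Their median log2 fold change, click over EDC, was -0.60, beside a median of 0.015 over all 15797 genes tested, of which 48.7% lay below 0. No cell cycle gene passed the adjusted threshold of 0.05 in edgeR's quasi-likelihood test, in which 0.00633% of all genes did, and the smallest adjusted p was 0.298. At an unadjusted p under 0.05, 6 genes were lower in click (E2f1, E2f2, Ccnb2, Bub1, Bub1b and Pttg1) and 0 were higher, while 8.0% and 7.22% of all genes tested did so in those directions. The 6 are 13.6% of the 44. The count depended on single libraries. It was 15 when click replicate 3 was left out, 10 when EDC replicate 2 was, and 3 when either EDC replicate 1 or EDC replicate 3 was. The count over all genes moved too. Lower in click at that p were 2039 of 16312 genes without click replicate 3 and 1566 of 16540 without EDC replicate 2. Without EDC replicate 1 they were 825 of 16280, and without EDC replicate 3 they were 527 of 16236. The count of cell cycle genes was 1, Pttg1, without both libraries that held Xist reads, beside 561 of 16054 genes tested. The median of the 44 was then -0.15, with 30 genes lower and 14 higher. With the mt-Atp6 ratio class as a covariate the count was 4, beside 898 of 15797 genes tested. The median of the 44 was then -0.36 and 35 of them were lower. DESeq2 called 3 of the genes lower, E2f1, Ccnb2 and Pttg1, and 0 higher at an adjusted p under 0.05, where it called 2.28% and 1.57% of all genes. By limma-voom 0 of the 44 passed after adjustment and 5 had an unadjusted p under 0.05, beside 2580 of 15797 genes tested, in either direction.

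**Figure D1:**
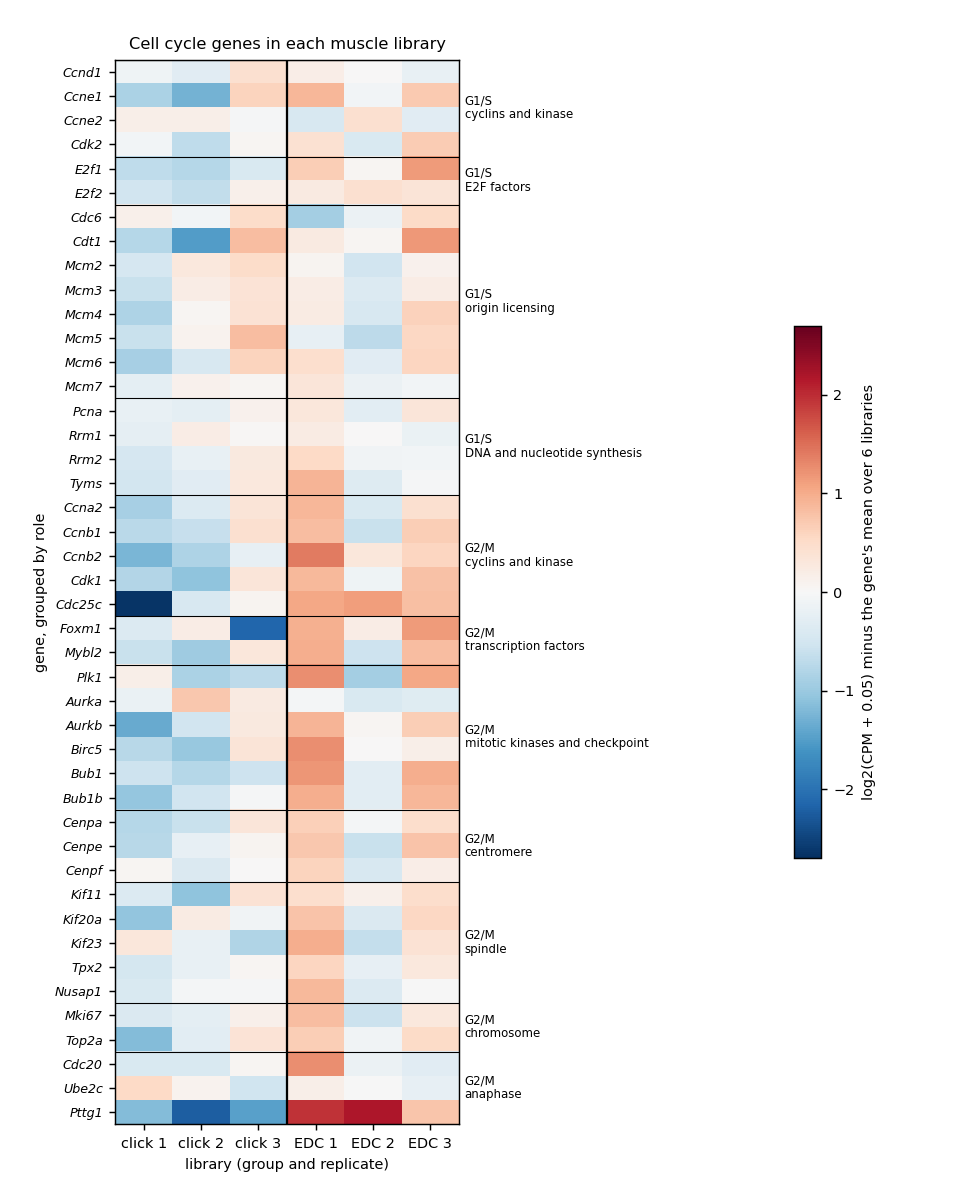
Colour shows log2(CPM + 0.05) of each of the 44 genes (rows, grouped by role) in each library (columns, click on the left, EDC on the right), minus the mean of the gene over the 6 libraries. Click replicates 1 and 2 are mostly blue and EDC replicates 1 and 3 mostly red, click replicate 3 and EDC replicate 2 are pale, and Pttg1 in the bottom row is red in all 3 EDC libraries.

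The libraries within a group were not alike. EDC replicate 1 held the highest of the 6 values for 24 of the 44 genes and click replicate 1 the lowest for 20. Click replicate 3 had the highest click value for 32 genes, and EDC replicate 2 the lowest EDC value for 35; these libraries share the low mt-Atp6 ratio with click replicate 1. Click replicate 3 exceeded EDC replicate 2 for 34 of the 44 genes, beside 50.7% of all genes tested. Click and EDC values did not overlap for 6 genes, all lower in click (E2f1, E2f2, Ccnb2, Cdc25c, Bub1 and Pttg1), beside 12.4% of all genes tested in that direction and 9.84% in the other. At 13.6% of the 44, this share is near the background, and Cdc25c passed the filter on low counts only through its EDC reads.

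**Figure D2:**
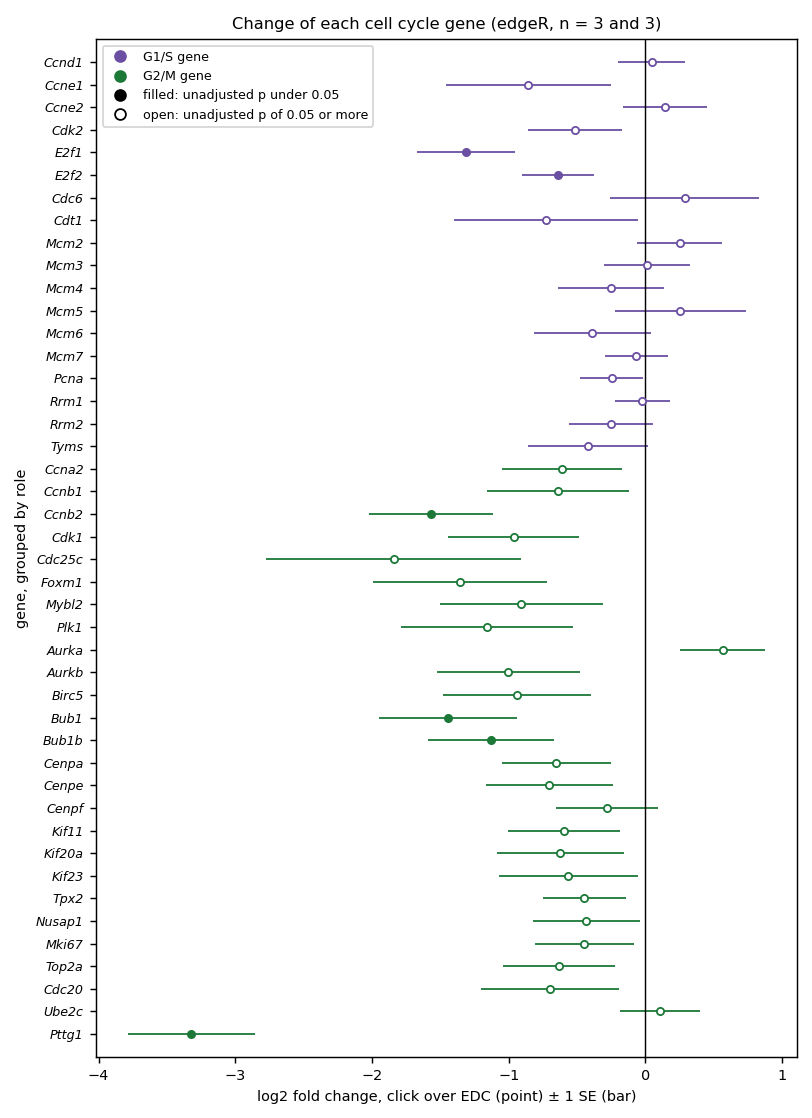
Points give the log2 fold change of each cell cycle gene, click over EDC, from edgeR (n = 3 and 3 libraries), and bars give 1 SE to each side. G1/S genes are purple and G2/M genes green, filled where the unadjusted p was under 0.05. Pttg1 at -3.32 stands apart on the left, next to it is Cdc25c at -1.84, and Aurka at 0.56 is the highest.

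The G1/S class lay near 0 in many of its genes. Of its 18 genes, 12 were lower and 6 higher in click, with a median of -0.25 and a range of -1.31 to 0.29. Without both libraries with Xist reads the G1/S median was 0.025. Only the E2F factors had an unadjusted p under 0.05 in this class.

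Among the cyclins and the kinase of this class, Ccnd1, the D cyclin that answers growth signals, had 15.5, 13.4 and 22.6 CPM in click replicates 1 to 3, against 18.8, 16.8 and 14.4 CPM in EDC replicates 1 to 3. Its values overlapped, with a log2 fold change of 0.045 (SE 0.25), and those of the E cyclins Ccne1 and Ccne2 and of their kinase Cdk2 overlapped too. The log2 fold changes of these 3 genes ran from -0.86 in Ccne1 to 0.15 in Ccne2.

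E2f1, an activator of replication genes, had 1.92, 1.82 and 2.35 CPM in click libraries against 4.99, 3.24 and 6.95 CPM in EDC libraries. Every click value lay below every EDC value, and the log2 fold change was -1.31 (SE 0.36, unadjusted p = 0.00783 and adjusted p = 0.298 in edgeR, adjusted p = 0.0401 in DESeq2). Over the 16 alternative fits, its adjusted p ran from 0.0401 to 0.722. E2f2, a related activator, had 6.30, 5.68 and 9.95 CPM in click libraries, against 10.7, 12.1 and 11.4 CPM in EDC libraries. These groups did not overlap either, and click replicate 3 came nearest to EDC, with a log2 fold change of -0.64 (SE 0.26, unadjusted p = 0.0452, adjusted p = 0.323 in edgeR). E2f1 lies at chr2:154559407-154569892 on the minus strand and E2f2 at chr4:136172394-136196057 on the plus strand (GENCODE M21).

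The origin licensing genes showed no common direction: 4 were lower and 4 higher, with a median of -0.027. The 6 subunits of the MCM2-7 replicative helicase had log2 fold changes between -0.39 (Mcm6) and 0.26 (Mcm5), the smallest unadjusted p being 0.395. Mcm6 had 5.25, 7.28 and 14.8 CPM in click libraries, against 13.3, 7.89 and 14.6 CPM in EDC libraries, so its highest value was in click replicate 3. Cdt1 and Cdc6, which load the helicase onto origins, had log2 fold changes of -0.73 (SE 0.67) and 0.29 (SE 0.55).

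The 4 genes of DNA and nucleotide synthesis had log2 fold changes of -0.42 to -0.021, and none had an unadjusted p under 0.05. Only Pcna was still lower in click without both libraries with Xist reads. Rrm1, the large subunit of ribonucleotide reductase, had 26.2, 35.7 and 31.7 CPM in click libraries, against 36.4, 31.2 and 27.4 CPM in EDC libraries. The groups overlapped. Pcna, the sliding clamp of DNA polymerases, had a log2 fold change of -0.25 (SE 0.23), and Rrm2 and Tyms, which make deoxynucleotides and thymidylate, had -0.25 (SE 0.31) and -0.42 (SE 0.44).

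The G2/M class lay further down. Of its 26 genes, 24 were lower in click and Aurka and Ube2c were higher (Ube2c turned lower with library totals alone, -0.44, without click replicate 1, -0.18, and without both libraries with Xist reads, -0.082), with a median log2 fold change of -0.67, or -0.65 without Pttg1. Without both libraries with Xist reads the G2/M median was -0.31. In 24 of the 26 the value was below the G1/S median, while 3 of the 18 G1/S genes lay below the G2/M median. The difference of the medians, G1/S minus G2/M, was 0.42, and it stayed between 0.34 and 0.61 in all 16 alternative fits.

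Among the mitotic cyclins and their kinase, all 5 genes were lower in click, with a median of -0.96. Ccnb2, a B cyclin that activates CDK1 for entry into mitosis, had 0.869, 1.17 and 1.80 CPM in click libraries, against 5.68, 2.60 and 3.17 CPM in EDC libraries. All click values lay below all EDC values, with EDC replicate 1 far above the rest. The log2 fold change was -1.57 (SE 0.45, unadjusted p = 0.0101 and adjusted p = 0.298 in edgeR, adjusted p = 0.0453 in DESeq2), and over the 16 alternatives the adjusted p ran from 0.0453 to 0.738. Ccnb2-ps, by its symbol a copy of Ccnb2, took 17 to 55 reads per library beside 24 to 248 for Ccnb2. Part of these reads may be shared, but the sequences were not compared. By symbol, Ccnb1-ps took 0 to 8 reads beside 36 to 177 for Ccnb1, and Pcna-ps2 took 39 to 126 beside 611 to 1687 for Pcna.

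Ccna2, the A cyclin of S phase and G2, had 3.22, 4.66 and 7.70 CPM in click libraries, against 11.2, 4.51 and 8.08 CPM in EDC libraries, and these overlapped. Cdc25c, the phosphatase that activates CDK1, was barely detected, with 0, 5 and 11 reads in click libraries against 26, 23 and 25 in EDC libraries. In CPM these were 0, 0.182 and 0.279 in click and 0.595, 0.636 and 0.498 in EDC. The groups did not overlap, but at this depth the log2 fold change of -1.84 had an SE of 0.93 and an unadjusted p of 0.0882 in edgeR. Cdc25c passed the filter on low counts only through its EDC reads, so its lower click values are partly set by that filter. Cdk1 itself and Ccnb1 had log2 fold changes of -0.96 (SE 0.48) and -0.64 (SE 0.52), with overlapping groups.

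Foxm1, a transcription factor of mitotic genes, had 1.16, 1.75 and 0.304 CPM in click libraries, against 3.0, 1.74 and 3.42 CPM in EDC libraries. EDC replicate 2 lay within the click range by a narrow margin, and the log2 fold change was -1.36 (SE 0.64, unadjusted p = 0.0696 in edgeR). Mybl2, which encodes B-MYB, had a log2 fold change of -0.91 (SE 0.60).

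Bub1, a kinase of the spindle checkpoint, had 0.688, 0.583 and 0.684 CPM in click libraries, against 2.43, 0.830 and 2.07 CPM in EDC libraries. The click values were close together and below all EDC values, of which replicate 2 was the nearest (log2 fold change -1.44, SE 0.51, unadjusted p = 0.0238, adjusted p = 0.298 in edgeR). Its partner in that checkpoint, Bub1b, had 1.19, 1.75 and 2.46 CPM in click libraries, against 5.04, 2.05 and 4.76 CPM in EDC libraries. Here click replicate 3 exceeded EDC replicate 2, and the log2 fold change was -1.13 (SE 0.46, unadjusted p = 0.0435, adjusted p = 0.319 in edgeR). The polo kinase Plk1, the chromosomal passenger kinase Aurkb and its partner Birc5, or survivin, had log2 fold changes of -1.16, -1.0 and -0.94, all with overlapping groups.

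Aurka, the kinase of centrosomes and spindle poles, ran the other way, with 3.84, 7.17 and 5.11 CPM in click libraries against 4.17, 3.27 and 3.46 CPM in EDC libraries. The groups overlapped, since click replicate 1 lay below EDC replicate 1. Its log2 fold change of 0.56 (SE 0.31, unadjusted p = 0.111 in edgeR) was positive in all 16 alternative fits, with a lowest value of 0.083 when library totals alone set the scale.

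The centromere genes Cenpa, Cenpe and Cenpf had log2 fold changes of -0.28 to -0.70. Cenpa, the histone variant that marks centromeres, had 1.88, 2.11 and 4.05 CPM in click libraries, against 5.06, 3.10 and 4.52 CPM in EDC libraries, with click replicate 3 inside the EDC range. The spindle genes Kif11, Kif20a, Kif23, Tpx2 and Nusap1 had log2 fold changes between -0.62 and -0.43, and that of Nusap1 was 0.13 without both libraries with Xist reads. Tpx2, which activates Aurora A on the spindle, had 3.44, 4.15 and 4.99 CPM in click libraries, against 7.17, 4.10 and 5.89 CPM in EDC libraries, so click replicates 2 and 3 exceeded EDC replicate 2.

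Mki67, the nuclear antigen used to count dividing cells, had 10.3, 11.3 and 15.0 CPM in click libraries, against 24.2, 9.10 and 16.6 CPM in EDC libraries. Both the highest and the lowest value were in EDC, and the log2 fold change was -0.45 (SE 0.36, unadjusted p = 0.257 in edgeR). Top2a, the topoisomerase that untangles chromosomes, had -0.63 (SE 0.41). Without both libraries with Xist reads, Mki67 had a log2 fold change of 0.029.

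Among the genes of anaphase, Cdc20, an activator of the anaphase-promoting complex, had a log2 fold change of -0.70 (SE 0.50), which was -0.00070 without EDC replicate 1 and 0.082 without both libraries with Xist reads. Ube2c, the E2 enzyme of that complex, had 0.11 (SE 0.29). Ube2c lies on the strand opposite to the fast muscle troponin gene Tnnc2, with overlapping exons. It had 589, 430 and 402 reads in click libraries and 719, 530 and 634 in EDC libraries, beside 264856 to 366427 reads of Tnnc2 per library. Whether the counting used strand is not stated in the labels, so 1.21 to 2.39 Ube2c reads per 1000 Tnnc2 reads cannot be told apart from reads of Tnnc2. Tnnc2 itself had a log2 fold change of 0.57 (SE 0.35). Exons of 11 of the 44 genes overlap a gene on the opposite strand, and for 6 of them (Ccna2, Ccne2, Cdc20, Kif20a, Mcm7 and Ube2c) a gene there had more reads.

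Pttg1 had the log2 fold change farthest from 0 of the 44 genes. It lies at chr11:43420250-43426251 on the minus strand and no other gene's exons overlap it in GENCODE M21. It had 130, 61 and 150 reads in click libraries, against 1803, 1747 and 895 reads in EDC libraries. In CPM these were 4.71, 2.22 and 3.80 in click and 41.3, 48.3 and 17.8 in EDC, or 3.58 ± 1.26 and 35.8 ± 16.0 (SD, n = 3 each). The groups were far apart, the lowest EDC value being 3.78 times the highest click value, and EDC replicate 3 was the lowest EDC library.

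The log2 fold change of Pttg1 was -3.32 (SE 0.46), and all 3 click libraries lay below all 3 EDC libraries. Its unadjusted p of 0.000178 in edgeR was rank 8 of 15797, and its adjusted p was 0.298. DESeq2 gave an adjusted p of 1.59e-09 and limma-voom an unadjusted p of 0.000491 and an adjusted p of 0.285. Over the 16 alternatives the log2 fold change ran from -3.76 to -3.09 and the adjusted p from 1.59e-09 to 0.615. Without both libraries with Xist reads it was -3.45, and with the mt-Atp6 ratio class as a covariate -3.62. A log2 fold change of -3 or lower was found in 77 genes, 0.487% of those tested, and in no other of the 44. Its neighbour Slu7, a splicing factor gene, had a log2 fold change of 0.26 (SE 0.23).

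Within the EDC group, Pttg1 did not follow the other mitotic genes from library to library. It was highest in EDC replicate 2, the library with the lowest EDC value for 22 of the 26 G2/M genes. Relative to the mean of the other G2/M genes, on the log2 CPM scale and with every gene centred over the 6 libraries, Pttg1 stood at -0.53, -1.81 and -1.42 in click libraries, against 1.11, 2.39 and 0.26 in EDC libraries. All click values were below 0 and all EDC values above it. Pttg1 made up 2.29%, 0.965% and 1.31% of the reads of the 44 genes in click libraries, against 10.6%, 17.6% and 5.49% in EDC libraries.

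Per kilobase of exon, Pttg1 averaged 1.79 CPM per kilobase in click and 17.9 in EDC. It was the fifth to sixteenth highest level of the 44 in click libraries, and the highest or next to highest in EDC libraries. In every library Pcna ranked first or directly after Pttg1 on this scale, with 9.73, 9.27 and 12.1 CPM per kilobase in click libraries, against 13.8, 9.15 and 14.0 in EDC libraries.

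**Figure D3:**
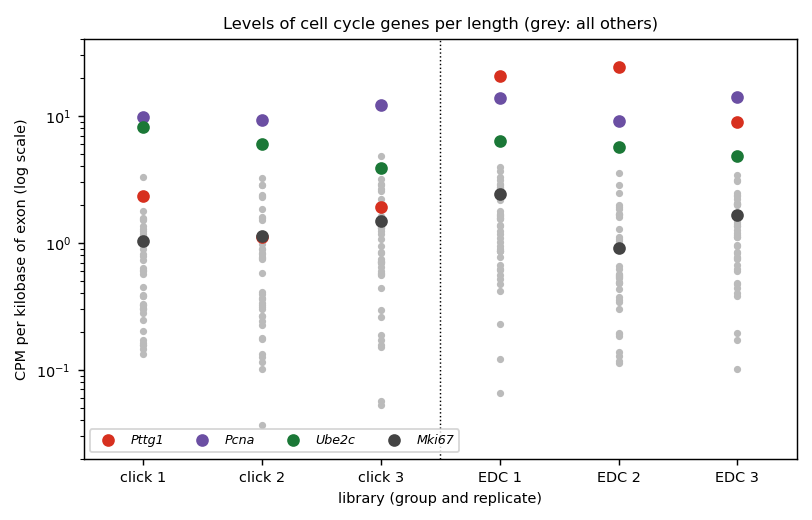
Each point is the level of a cell cycle gene in a library, in CPM per kilobase of exon on a log scale, with click libraries on the left and EDC libraries on the right; Pttg1, Pcna, Ube2c and Mki67 are coloured and the rest grey. Pttg1 lies among the grey points at 1.11 to 2.35 in click libraries and at 8.91 to 24.2 in EDC libraries, and Cdc25c at 0 in click replicate 1 is not drawn.

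The classes were then compared within each library, as means over genes of log2 CPM centred on the mean of each gene. The G1/S mean was -0.43, -0.30 and 0.31 in click libraries, against 0.24, -0.16 and 0.34 in EDC libraries. The G2/M mean without Pttg1 was -0.63, -0.42 and -0.057 in click libraries, against 0.84, -0.21 and 0.48 in EDC libraries. Both class means overlapped between the groups. In the libraries with a high mt-Atp6 ratio the G2/M mean was lower in click (-0.42 in replicate 2) than in EDC (0.84 and 0.48 in replicates 1 and 3). In those with a low ratio, EDC replicate 2 at -0.21 lay between click replicates 1 and 3, so that the relation did not hold there.

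G1/S minus G2/M without Pttg1 was 0.20, 0.12 and 0.36 in click libraries, against -0.60, 0.054 and -0.14 in EDC libraries. This difference did not overlap, though EDC replicate 2 lay just below the lowest click library. Each mt-Atp6 ratio class holds a single library of 1 group (click replicate 2 in the high class, EDC replicate 2 in the low class), so the difference has no replicate check within a class. With Pttg1 in the G2/M class it was 0.22, 0.19 and 0.42 in click libraries, against -0.64, -0.038 and -0.15 in EDC libraries. In reads, the G2/M genes took 38.5%, 35.7% and 34.8% of the 44 genes' total in click libraries, against 50.7%, 46.9% and 42.9% in EDC libraries. With Pttg1 left out, the shares were 37.1%, 35.1% and 33.9% in click, against 44.9%, 35.5% and 39.6% in EDC, so that EDC replicate 2 lay inside the click range. All these shares include Ube2c, with 589, 430 and 402 reads in click and 719, 530 and 634 in EDC, which may be reads of Tnnc2.

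**Figure D4:**
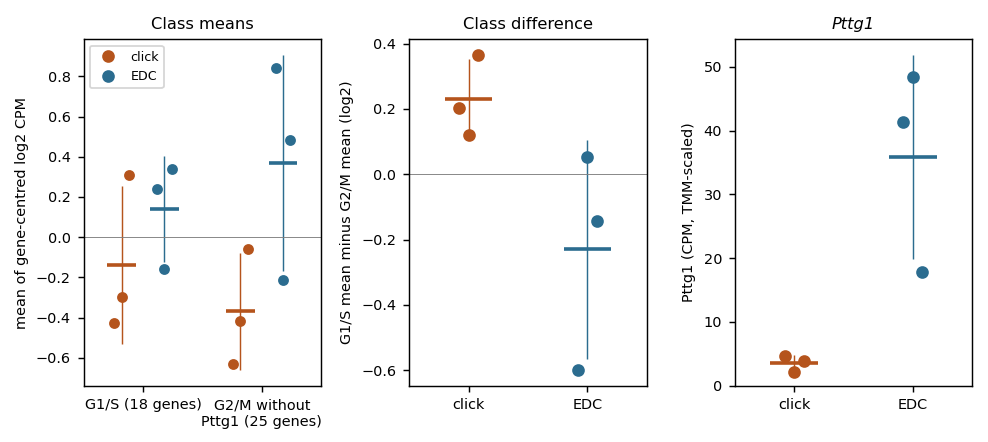
Points are libraries, horizontal lines group means and vertical lines 1 SD (n = 3 click and 3 EDC). The left panel shows the mean gene-centred log2 CPM of the G1/S genes and of the G2/M genes without Pttg1, where the groups overlap; the middle panel shows their difference, 0.12 to 0.36 in click and -0.60 to 0.054 in EDC; the right panel shows Pttg1 in CPM, 2.22 to 4.71 in click and 17.8 to 48.3 in EDC.

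Other genes of the pathway were read from the same fit in 6 lists of 103 genes, all of which passed the filter. No gene of these lists passed the adjusted threshold in edgeR. At an unadjusted p under 0.05, 12 were lower and 2 higher in click, beside 8.0% and 7.22% of all genes tested, so that the lower genes make 11.7% of the lists. The median log2 fold change was -0.23, or -0.026 without both libraries with Xist reads. The count of lower genes was 4 without EDC replicate 1, beside 825 of 16280 genes tested. It was 0 without both libraries with Xist reads, beside 561 of 16054. DESeq2 called 3 genes of these lists lower (Cdk6, Ttk and Espl1) and 1 higher (E2f6), beside 2.28% and 1.57% of all genes tested. These shares lie near those of all genes, and limma-voom called 0.

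The list of other mitotic genes went the same way as the G2/M class, with 28 of 32 lower in click and a median of -0.46, and 5 had an unadjusted p under 0.05. Without both libraries with Xist reads, 20 of the 32 were lower and the median was -0.11. Ttk, the kinase that starts the spindle checkpoint, had 5, 6 and 4 reads in click libraries, against 54, 19 and 45 in EDC libraries, a log2 fold change of -2.41 (SE 0.62). Like Cdc25c, Ttk passed the filter on low counts only through its EDC reads. Hmmr, Anln and Dlgap5, which act in the spindle and in cytokinesis, had log2 fold changes of -1.52, -1.04 and -1.39, with click values below all EDC values. Kif2c, a microtubule depolymerase, was at 0 reads in click replicate 2, with 31 and 66 in the other click libraries and 123, 52 and 110 in EDC libraries.

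Of the 22 genes for the anaphase-promoting complex, cohesin and partners of securin, 13 were lower and 9 higher, with a median of -0.027. Espl1, which encodes separase, the protease that securin inhibits, had 26, 28 and 39 reads in click libraries, against 94, 77 and 119 in EDC libraries. These did not overlap in CPM, and the log2 fold change was -1.17 (SE 0.33, unadjusted p = 0.00910, adjusted p = 0.298 in edgeR). Anapc2, the cullin of the complex, had -0.54 (SE 0.17), and Pttg1ip, a binding partner of securin, had -0.22 (SE 0.52).

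Of 18 other replication genes, 14 were lower, with a median of -0.39, and Gins2, a part of the replicative helicase, had 0.688, 1.20 and 1.34 CPM in click libraries against 6.34, 1.83 and 3.07 CPM in EDC libraries (log2 fold change -1.79, SE 0.54). The pocket proteins, other E2F factors and MuvB subunits had a median of 0.29, with 10 of 15 higher; with library totals alone 12 of them were lower. The repressor E2f6 had 27.2, 45.8 and 29.1 CPM in click libraries, against 13.8, 20.6 and 13.5 CPM in EDC libraries, so all click values were higher (log2 fold change 1.09, SE 0.28, unadjusted p = 0.00585 and adjusted p = 0.298 in edgeR). Lin52, a MuvB subunit, had 0.61, while the retinoblastoma gene Rb1 and the repressor E2f7 had -0.53 and -1.30.

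Of 9 other cyclins, kinases and phosphatases, 7 were lower. Cdk6, a partner of D cyclins, had 4.60, 3.06 and 5.90 CPM in click libraries, against 11.5, 7.64 and 14.2 CPM in EDC libraries, which did not overlap (log2 fold change -1.29, SE 0.34). Among the 7 CDK inhibitors, 4 were lower and 3 higher. Cdkn1a, the p53 target p21 that blocks CDK2, had 31.7, 14.3 and 51.0 CPM in click libraries, against 86.2, 64.3 and 76.7 CPM in EDC libraries, below every EDC value (log2 fold change -1.23, SE 0.43, unadjusted p = 0.0246, adjusted p = 0.298 in edgeR).

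Markers of cell types that a muscle piece can hold differed between the libraries too. Summed over 10 macrophage markers, the level was 1469, 159 and 1301 CPM in click libraries, against 2755, 2445 and 5465 CPM in EDC libraries, and all 10 markers were lower in click without overlap. The 6 neutrophil markers summed to 7.39, 12.9 and 6.20 CPM in click libraries, against 147, 10.8 and 169 CPM in EDC libraries, so that EDC replicate 2 lay in the click range, and all 6 had lower means in click. Of these markers, Retnlg was at 0 reads in click replicates 1 and 3 and in EDC replicate 2, and Mmp8 in click replicate 3.

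The 7 T and NK cell markers summed to 8.65, 31.3 and 182 CPM in click libraries, against 21.4, 10.9 and 16.4 CPM in EDC libraries, and the 6 B and plasma cell markers to 8.65, 73.4 and 163 CPM in click against 89.1, 3.76 and 11.2 CPM in EDC. Both were highest in click replicate 3. Among the click libraries, the sums of satellite cell, fibroblast and adipocyte markers were also highest there, while macrophage markers were highest in replicate 1 and neutrophil markers in replicate 2. Satellite cell and myoblast markers summed to 50.4, 23.9 and 58.5 CPM in click libraries, against 133, 73.0 and 58.6 CPM in EDC libraries, and 5 of 6 were lower; Mymx, which fuses myoblasts, was at 0 reads in click replicate 2.

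All 6 fibroblast markers were lower in click, with sums of 2938, 584 and 3570 CPM in click libraries, against 5358, 3925 and 6239 CPM in EDC libraries. Endothelial markers were nearly level, at 188 to 214 CPM in click and 188 to 221 CPM in EDC. The muscle fibre markers Acta1, Ckm, Myh4, Tnnt3 and Ttn were abundant in every library, as muscle tissue would have, and summed to 94066 to 143834 CPM in click and 65412 to 104593 CPM in EDC. Pericyte and smooth muscle markers summed to 333 to 395 CPM in click and 298 to 339 CPM in EDC. Among them Myh11 was higher in click without overlap (log2 fold change 1.53, SE 0.23) and Pdgfrb lower without overlap (-0.82, SE 0.22). The adjusted p of both was 0.298 in edgeR, and Rgs5, Kcnj8 and Acta2 overlapped. Adipocyte markers summed to 3.69 to 108 CPM in click and 55.8 to 115 CPM in EDC, and erythroid markers to 88.2 to 142 CPM in click and 79.1 to 94.8 CPM in EDC. The part of these cell types in the values of the cell cycle genes was not tested.

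**Figure D5:**
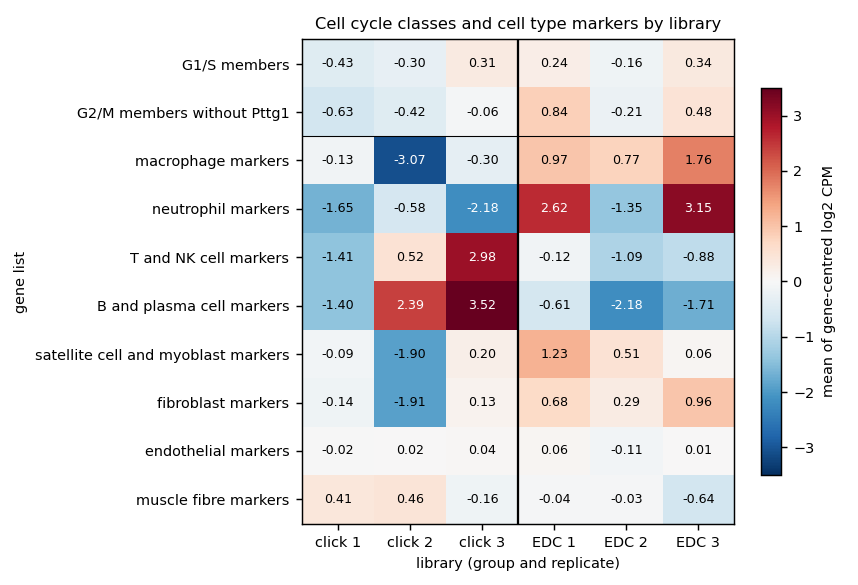
Each cell gives the mean over a list of log2 CPM, centred on the mean of each gene over the 6 libraries, with click libraries in the left columns and EDC libraries in the right. The top rows are the G1/S genes and the G2/M genes without Pttg1, and the rows below are cell type markers. Macrophage and fibroblast markers are highest in EDC libraries, and T, NK, B and plasma cell markers are highest in click replicate 3.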

How the data were processed

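RNA from muscle of 6 mice was sequenced, 3 click and 3 EDC; per the labels' protocols, RNA came from a column kit and libraries from a SMARTer kit. The authors deposited whole-number read counts per gene, not normalised; the submitters' processing notes name mm10 but no aligner, annotation or strand setting. Of 55335 rows, 3225 without a symbol (0.0631% to 0.0996% of reads) were left out. Click was tested against EDC over 15797 genes with edgeR 4.0.16 in R 4.3.3 (TMM, filterByExpr by group, robust quasi-likelihood F test, two-sided, Benjamini-Hochberg, threshold 0.05), tested on simulated data. Each SE is the change over the square root of F. Class means used log2 CPM with a prior count of 2. Alternatives were other scalings and filters, DESeq2 1.42.0, limma-voom 3.58.1, a replicate block, libraries left out and a covariate for the ratio of mt-Atp6 to Gm10925 reads.

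The 44 genes, the lists and the tests were chosen with earlier results of these data known. Values in every library are given for Pttg1, for genes with an unadjusted p under 0.05 or without overlap, for those at 0 reads in a library and for the gene of each role with the highest mean, and for Ube2c because of its overlap with Tnnc2. Of the other pathway genes, up to 4 a list with an unadjusted p under 0.05 are named; Kif2c, Pttg1ip and Slu7 were added after their values were seen. Replicate numbers were taken from the labels, which do not say that they mark pairs. Each library was counted as 1 animal; no 2 libraries agreed within sampling noise (chi-square per gene 67.7 to 529).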

Additional observations from a re-analysis of the deposited data

How the results depend on the processing

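In 16 alternative fits, 28 of the 44 cell cycle genes were lower in click every time, 1 (Aurka) was higher every time, and 15 turned direction at least once (3 of the 44 were not tested under the filter at a mean of 50 reads). With library totals alone the median of all genes was -0.45. The medians were -1.03 for the 44 genes, -0.68 for G1/S and -1.15 for G2/M (relative to all genes -0.57, -0.23 and -0.69). The other pathway genes gave 19 lower and 0 higher at an unadjusted p under 0.05, beside 2500 and 206 of the 15797 genes tested. Ccnd1 (-0.37), Ccne2 (-0.32), Cdc6 (-0.18), Mcm2 (-0.19), Mcm3 (-0.43), Mcm5 (-0.16) and Ube2c (-0.44) then turned lower. Mcm3 also did with no low-count filter (-0.024), with limma-voom (-0.012) and with the replicate block (-0.018). DESeq2 called 606 genes, 3 of them cell cycle genes, with Pttg1 at -3.32. The test over all genes called 0 with limma-voom, with the replicate block, without both libraries with Xist reads and with the mt-Atp6 covariate.

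Without both libraries with Xist reads (2 against 2), 1 cell cycle gene and 0 other pathway genes were lower at an unadjusted p under 0.05, the median was -0.15, and Ccne2 (-0.053), Ube2c (-0.082), Mcm4 (0.035), Mcm7 (0.20), Rrm1 (0.20), Rrm2 (0.14), Tyms (0.21), Nusap1 (0.13), Mki67 (0.029) and Cdc20 (0.082) turned. With the mt-Atp6 covariate 1 other pathway gene was higher at that p, beside 778 of 15797 genes tested, and Ccnd1 (-0.060), Mcm7 (0.023) and Rrm1 (0.027) turned. The cause was not tested. Same-numbered libraries correlated at -0.047, 0.19 and 0.28 in their deviations from the group means, and differently numbered ones at -0.30 to 0.088. Xist reads also fell in replicate 1 of both groups. These values do not settle whether the numbers mark pairs, and the main fit used no pairing. The replicate block gave 5 other pathway genes higher and left 6 cell cycle genes lower at that p, beside 1766 higher and 1907 lower of 15797 genes tested.

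Leaving out 1 library at a time gave 0 to 7 genes called. At an unadjusted p under 0.05, 3 to 15 cell cycle genes were lower. Of the other pathway genes, 4 to 15 were lower and 1 to 3 higher. Over all genes tested, 527 to 2039 were lower and 543 to 1438 higher. The medians were -0.89 to -0.34 (all 44), -0.43 to -0.019 (G1/S) and -1.04 to -0.49 (G2/M). Ranges that crossed 0 were -0.20 to 0.16 (Ccnd1), -0.017 to 0.43 (Ccne2), -0.021 to 0.75 (Cdc6), -0.19 to 0.23 (Mcm3), -0.53 to 0.0099 (Mcm4), -0.19 to 0.68 (Mcm5), -0.20 to 0.098 (Mcm7), -0.17 to 0.088 (Rrm1), -0.69 to 0.053 (Tyms), -0.71 to 0.014 (Nusap1) and -0.18 to 0.34 (Ube2c). Counts of 0 to 50 reads, as for Cdc25c, Ttk and Bub1 in click libraries, limit how well such genes were measured. With 3 against 3 libraries no exact permutation p can go below 0.1.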
